A study of Mus musculus with 6 samples.

Results

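The genes described here are 8 published markers of beige adipocytes, P2rx5, Slc36a2, Car4, Klhl13, Sp100, Cited1, Tmem26 and Tnfrsf9. They were picked by symbol from a count table of 20295 mouse genes, in which all 8 were present. RNA was sequenced from adipocytes differentiated in culture from inguinal white fat (iWAT), brown fat (BAT) and epididymal white fat (eWAT), with 2 replicates per depot and 6 libraries in all. All cultures started from the stromal-vascular fraction, the mixed cells that collagenase frees from fat once mature adipocytes are removed, of male NMRI mice aged 4 to 5 weeks. The BAT cells were pooled from interscapular, cervical and axillary pads. Cultures of every depot shared a medium that held 1 µM rosiglitazone (an agonist of Pparg, the adipogenic nuclear receptor), 30 nM insulin, newborn calf serum at 10%, sodium ascorbate at 25 µg/ml, buffer, glutamine and antibiotics. The labels name no adrenergic agonist. Harvest was 8 days after plating per the protocol, although the table tags its columns with day 7. Only cultures with over 50% differentiated cells were kept, and other stromal cells may remain in them. The labels do not say that replicates came from separate animals or cultures, so p-values measure only how far these libraries spread, and that spread may be technical.

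Beige adipocytes are cells within white fat, above all inguinal fat, that can switch on the uncoupling protein Ucp1 and burn fuel for heat, as brown adipocytes do. They arise from a different lineage than classical interscapular brown fat, and the markers studied here were published as labels that tell them from brown or white cells. P2rx5, an ATP-gated ion channel, and Slc36a2, a proton-coupled amino acid transporter, are surface proteins described for both brown and beige cells. Tmem26 and Tnfrsf9 (CD137, a receptor of the tumour necrosis factor family) are surface proteins used to enrich beige precursors, Car4 is a membrane-anchored carbonic anhydrase, and Klhl13, Sp100 and Cited1 act inside the cell.

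Total counts per library ran from 2889038 to 4807449, and a count of 3 corresponded to 0.634 to 1.15 CPM, the usual per-library scale of read counts. Levels are given as CPM after trimmed-mean scaling, and mean ± SD is over n = 2. Genes of the differentiated adipocyte were abundant in every culture, since 9 such markers summed to 33100 to 34600 CPM in iWAT, 39900 to 52900 CPM in BAT and 30600 to 35700 CPM in eWAT. By edgeR, 0 of these were called between any depots. At an unadjusted p below 0.05, 1 was lower in iWAT than in BAT and 2 were higher in BAT than in eWAT. DESeq2 called 2 higher in BAT than in eWAT and 0 in the other contrasts, and limma voom called 0 in each. With the replicate number as a block, edgeR called Pparg lower in iWAT than in BAT and higher in BAT than in eWAT.

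The comparison asked whether inguinal cultures exceed both other depots in beige markers. By edgeR's quasi-likelihood test with Benjamini-Hochberg adjustment over 11732 genes, 0 of the 6 markers with enough counts to test were higher in iWAT than in both BAT and eWAT, against 0% of all tested genes. DESeq2 called 0 of the 6 in both contrasts as well, against 0.358% of all genes, and limma voom and edgeR with the replicate number as a block called 0. The block called 81 of all genes higher in iWAT than in both, and limma voom called 0. With 0 genes called, edgeR without the block and limma voom cannot tell the markers from other genes here. The markers did not share a depot. Mean CPM was highest in iWAT for Car4 and Tmem26, in BAT for P2rx5 and Slc36a2, and in eWAT for Klhl13 and Sp100. Among all tested genes, 25.8% had their highest mean in iWAT, 38.8% in BAT and 35.4% in eWAT. Cited1 and Tnfrsf9 had too few counts to be tested.

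**Figure D1:**
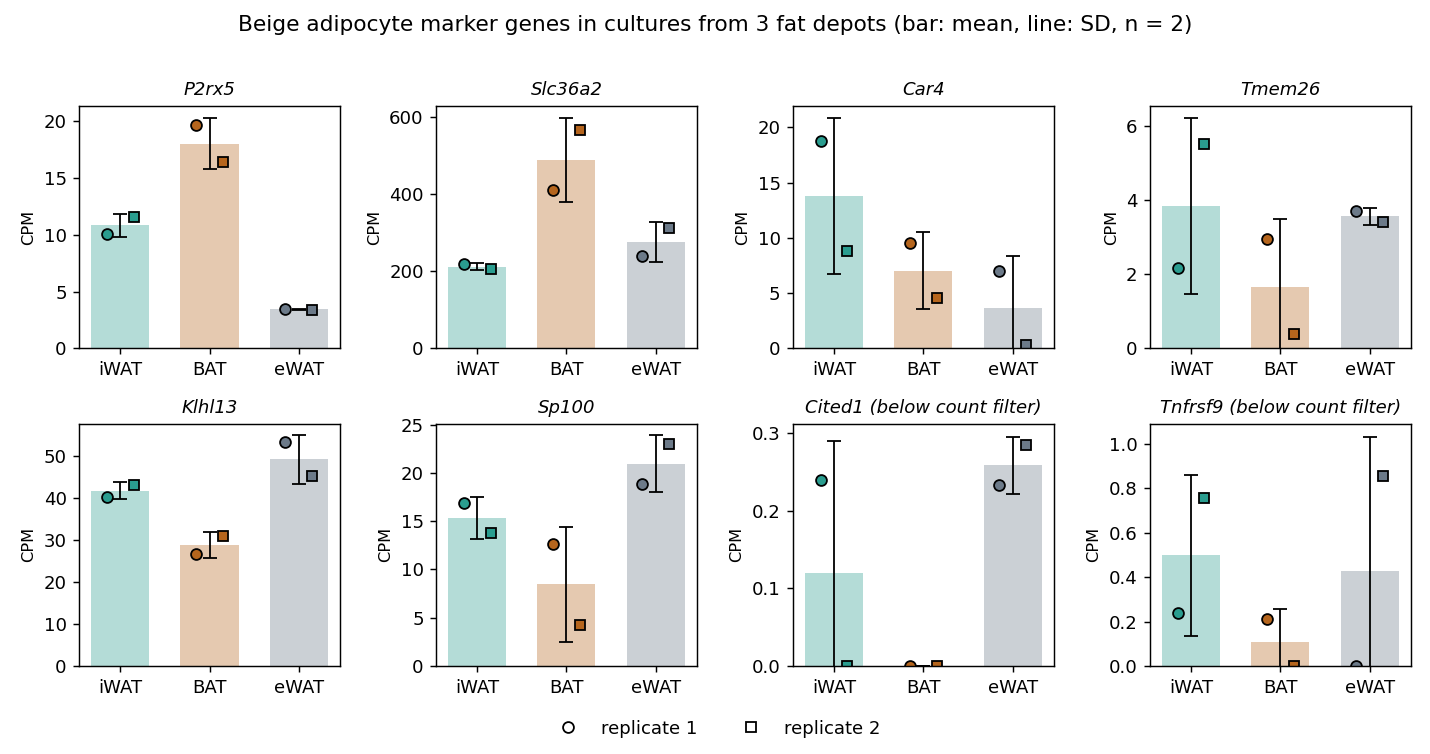
CPM of each beige marker (vertical axis, linear, a separate scale for each gene) in the iWAT, BAT and eWAT cultures, with circles for replicate 1, squares for replicate 2, bars for the mean and lines for the SD (cut off at 0). P2rx5 and Slc36a2 stand highest in BAT, Klhl13 and Sp100 highest in eWAT, and the replicates lie far apart for Car4 in each depot and for Tmem26 in iWAT and BAT.

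P2rx5 separated all 3 depots, with iWAT in the middle. It had 10.1 and 11.6 CPM in the iWAT cultures, 19.65 and 16.4 CPM in the BAT cultures, and 3.49 and 3.41 CPM in the eWAT cultures. The libraries of the 3 depots did not overlap, an arrangement in this order that 6.29% of tested genes shared. P2rx5 was higher in BAT than in eWAT by 2.38 ± 0.30 on the log2 scale (SE), or 5.2-fold with a 95% interval of 3.14 to 8.62 (edgeR adjusted p = 0.0204). It was the 1 of 6 tested markers called higher in that contrast, in which edgeR called 2.71% of all genes higher. The call held by DESeq2 (adjusted p = 0.000104) and limma voom (adjusted p = 0.0306). By edgeR it held with the replicate block (adjusted p = 0.00257), with no filter on low counts (0.000185) and with other scaling (0.0203). It also held without iWAT replicate 1 or BAT replicate 1 and was lost under the 5 other alternatives. Its adjusted p was 0.0511 without iWAT replicate 2, 0.0797 without BAT replicate 2, 0.0942 without eWAT replicate 1, 0.08 without eWAT replicate 2 and 0.051 in a fit of BAT and eWAT alone, while the log2 difference stayed between 2.25 and 2.50 with a library left out.

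Between iWAT and eWAT, P2rx5 differed by 1.64 ± 0.30 on the log2 scale, an estimate of 3.11-fold with an interval of 1.87 to 5.17. It did not pass adjustment (edgeR unadjusted p = 0.00139, adjusted p = 0.138; DESeq2 adjusted p = 0.0542), and passed once the replicate number was added to the edgeR fit as a block (1.64, adjusted p = 0.0301). No gene of the table was called in that contrast by edgeR without the block, or 0% of those tested, and with it 195 were higher and 368 lower in iWAT. DESeq2 called 0 of the 6 markers, against 0.963% of genes higher and 1.6% lower, or 2.57% either way, and limma voom called 0. At an unadjusted p below 0.05, 1 of the 6 markers (P2rx5) and 9.34% of all genes stood out. Without the filter on low counts, the P2rx5 difference passed (1.64, adjusted p = 0.0198). Between iWAT and BAT the P2rx5 difference was -0.74 ± 0.27 (edgeR adjusted p = 0.255), with both iWAT libraries below both BAT libraries.

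Slc36a2 had the most reads of the 8 markers, also per kilobase, and followed another order. It had 218.9 and 205.4 CPM in the iWAT cultures, 411.2 and 565.9 CPM in the BAT cultures, and 239.5 and 312.6 CPM in the eWAT cultures. All 3 depots were again apart, but here iWAT was the lowest, an order with full separation that 1.36% of tested genes had. The iWAT level was 0.434 times that of BAT with an interval of 0.293 to 0.643 (log2 difference -1.20 ± 0.23, edgeR adjusted p = 0.0909). BAT stood 1.77-fold above eWAT (interval 1.2 to 2.61, log2 difference 0.82 ± 0.23, edgeR adjusted p = 0.0875). Neither passed by edgeR without a block, and both passed by DESeq2 (adjusted p = 0.00116 and 0.0332) by edgeR with no filter on low counts (0.00357 and 0.0319) and by edgeR with the replicate block (0.0101 and 0.0148). The difference of iWAT from eWAT was -0.38 ± 0.23, with an interval of -0.94 to 0.18 (edgeR adjusted p = 0.801).

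Per kilobase of counted length, Slc36a2 averaged 87.3 ± 3.93 CPM in iWAT, 201 ± 45.0 CPM in BAT and 113.5 ± 21.3 CPM in eWAT. Its mean over the libraries lay at the percentile 95.9 of tested genes on this scale. P2rx5 averaged 4.74 ± 0.452 CPM per kilobase in iWAT, 7.89 ± 0.993 in BAT and 1.51 ± 0.0251 in eWAT, at the percentile 29.7. On that scale Slc36a2 stood far above P2rx5 in each depot.

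Car4 had its highest mean in iWAT, with replicates far apart in every depot. It had 18.8 and 8.80 CPM in the iWAT cultures, 9.51 and 4.59 CPM in the BAT cultures, and 6.99 and 0.284 CPM in the eWAT cultures. The iWAT libraries overlapped those of BAT and lay above those of eWAT, where replicate 2 had a single read for Car4 and replicate 1 had 30. The log2 difference of iWAT from eWAT was 1.86 ± 0.97 with an interval of -0.49 to 4.21 (edgeR adjusted p = 0.714), and that of iWAT from BAT was 0.92 ± 0.92 with an interval of -1.31 to 3.15 (adjusted p = 0.67). One library decided the first value. Without eWAT replicate 1 it was 5.45, and leaving out eWAT replicate 2 gave 0.98. The second was 0.28 without iWAT replicate 1 and 1.58 without BAT replicate 1. BAT differed from eWAT by 0.94 ± 1.00 (adjusted p = 0.607), a value of 4.53 without eWAT replicate 1 and 0.06 without eWAT replicate 2.

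In the authors' deposited table, Car4 was the only 1 of the 8 markers called higher in iWAT than in both others, with a log2 difference of 1.99 from eWAT (adjusted p = 9.88e-07) and 0.99 from BAT (adjusted p = 0.0356). That table called 1.17% of its genes higher in iWAT than in both. The authors' deposited table holds log2 fold changes, p-values and adjusted p-values per the file headers. Its calls were more numerous in every contrast: 8.52% of genes between iWAT and eWAT, 8.24% between iWAT and BAT and 15.6% between BAT and eWAT.

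Tmem26, a transmembrane protein of unknown molecular function, was near the limit of detection. It had 2.17 and 5.53 CPM in the iWAT cultures, 2.96 and 0.382 CPM in the BAT cultures, and 3.73 and 3.41 CPM in the eWAT cultures. The iWAT replicates lay on either side of the eWAT pair, and BAT replicate 2 had 1 read. The log2 difference of iWAT from eWAT was 0.10 ± 0.75, with an interval of -1.71 to 1.91 (edgeR adjusted p = 0.998), and it changed sign with the iWAT library left out, at 0.61 without replicate 1 and -0.71 without replicate 2. From BAT the difference was 1.02 ± 0.81 (adjusted p = 0.579), and 3.21 without BAT replicate 1 against 0.21 without iWAT replicate 2. BAT differed from eWAT by -0.92 ± 0.81 (adjusted p = 0.531), or -3.11 without BAT replicate 1 and -0.27 without BAT replicate 2. Per kilobase, Tmem26 averaged 0.762 ± 0.471 CPM in iWAT, 0.331 ± 0.361 CPM in BAT and 0.707 ± 0.0440 CPM in eWAT, at the percentile 1.8 of tested genes.

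Klhl13 and Sp100 shared an order opposite to that of P2rx5, with eWAT above iWAT and iWAT above BAT. Klhl13 is a substrate adaptor of the Cul3 ubiquitin ligase. It had 40.4 and 43.2 CPM in the iWAT cultures, 26.6 and 31.0 CPM in the BAT cultures, and 53.4 and 45.2 CPM in the eWAT cultures. The 3 depots were apart from each other, and 4.98% of tested genes were apart in this order. The log2 difference of iWAT from BAT was 0.54 ± 0.19 (1.46-fold, interval 1.06 to 2.01, edgeR adjusted p = 0.241), and that of iWAT from eWAT was -0.24 ± 0.19 (interval -0.69 to 0.21, adjusted p = 0.901). BAT differed from eWAT by -0.78 ± 0.19 (adjusted p = 0.0638), a difference that passed with no filter on low counts (-0.80, adjusted p = 0.0402) and with the replicate block (-0.79, adjusted p = 0.0189).

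Sp100 is a nuclear body protein whose gene responds to interferon. It had 16.8 and 13.8 CPM in the iWAT cultures, 12.7 and 4.21 CPM in the BAT cultures, and 18.9 and 23.04 CPM in the eWAT cultures. No 2 depots overlapped, although the BAT replicates stood far apart. BAT differed from eWAT by -1.25 ± 0.47 on the log2 scale (edgeR adjusted p = 0.166). That value was -2.30 without BAT replicate 1, where it passed (adjusted p = 0.0388), and -0.72 without BAT replicate 2. With no filter on low counts it passed too (-1.26, adjusted p = 0.0386). The iWAT cultures differed from BAT by 0.80 ± 0.48 (interval -0.35 to 1.95, adjusted p = 0.451) and from eWAT by -0.45 ± 0.46 (interval -1.55 to 0.65, adjusted p = 0.959). Of the 50-base words in the longest coding transcript of Sp100, 10.6% also occurred in transcripts of other genes in GENCODE M21, against 3.7% for Slc36a2 (all shared with its neighbour Slc36a1) and 0% for the other 6 markers. How multiply mapping reads were counted is not given in the sources used here, so the Sp100 counts are uncertain to that extent.

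Promoter sequence was read from RefSeq windows (GRCm38.p6, 250 bases before to 50 after a transcript start), of which 14 belonged to Car4, Cited1, Klhl13, Sp100, Tmem26 and Tnfrsf9. The windows shown, 5′ to 3′ on the gene's strand, are those of Car4, whose mean was highest in iWAT, and Klhl13 and Sp100, which shared a depot order. Capitals mark AGGTCA, the core motif of many nuclear receptors, Pparg among them.
Car4, chr11:84957504-84957803, plus strand: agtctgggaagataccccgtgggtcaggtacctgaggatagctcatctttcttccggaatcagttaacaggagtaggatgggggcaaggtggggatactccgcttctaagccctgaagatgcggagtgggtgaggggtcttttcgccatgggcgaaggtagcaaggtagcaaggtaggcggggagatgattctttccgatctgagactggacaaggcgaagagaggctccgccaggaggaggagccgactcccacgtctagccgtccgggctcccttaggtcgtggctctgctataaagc
Klhl13, chrX:23365014-23365313, minus strand: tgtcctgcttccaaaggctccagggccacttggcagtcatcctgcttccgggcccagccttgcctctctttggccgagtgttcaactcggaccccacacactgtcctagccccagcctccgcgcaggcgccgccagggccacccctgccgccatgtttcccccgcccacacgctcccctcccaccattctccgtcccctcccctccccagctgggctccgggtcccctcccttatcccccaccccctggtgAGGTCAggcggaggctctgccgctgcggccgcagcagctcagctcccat
Sp100, chr1:85649738-85650037, plus strand: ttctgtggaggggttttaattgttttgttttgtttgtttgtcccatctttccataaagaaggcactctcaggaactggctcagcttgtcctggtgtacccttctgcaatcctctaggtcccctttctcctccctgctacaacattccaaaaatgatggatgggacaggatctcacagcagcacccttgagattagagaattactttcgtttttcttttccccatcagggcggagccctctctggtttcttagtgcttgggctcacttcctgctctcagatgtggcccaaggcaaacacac

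AGGTCA on either strand was present in 4 of the 14 windows, those of Cited1, Klhl13 and Tnfrsf9, against 16.3% of 32851 mouse promoter windows of this length. In the Klhl13 window shown it begins at position 2 after the start site, and a second listed start nearby holds the same copy. Longer motifs were searched on both strands: the PPAR direct repeat (AGGTCA again after 1 base, in 0.0396% of all windows), the EBF palindrome (TCCC and GGGA 2 bases apart, 0.904%), the C/EBP palindrome TTGCGCAA (0.183%), the cyclic AMP element TGACGTCA (1.79%) and the interferon element (GAAA again after 2 bases, 3.44%, added after the values were seen). None of these letters stood in any of the 14 windows, which says nothing of binding elsewhere. The direct repeat contains AGGTCA, so those counts overlap. The Klhl13 window shown had 69.3% G and C and 16 CpG sites, while the 5 Klhl13 windows ran from 33.7% to 69.3% and from 0 to 16 sites. The window of Car4 had 57.3% and 15, and that of Sp100 shown had 47.7% and 2, beside medians of 52.7% and 7 over all windows.

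Full separation of the 3 depots thus held for P2rx5, Slc36a2, Klhl13 and Sp100, or 4 of the 6 tested markers, against 16.3% of all tested genes. The separated markers followed 3 different orders, and iWAT was the top depot in 0 of them. Of the 6 tested markers, 0 had both iWAT libraries above all 4 other libraries, as 6.22% of tested genes did. Taken by pairs of depots, 2 markers lay wholly higher in iWAT than in eWAT (P2rx5 and Car4, against 19.2% of tested genes) and 3 wholly lower (Slc36a2, Klhl13 and Sp100, against 18.8%). For iWAT and BAT, 2 lay wholly higher (Klhl13 and Sp100, against 24.1%) and 2 wholly lower (P2rx5 and Slc36a2, against 23.9%). For BAT and eWAT, 2 lay wholly higher (P2rx5 and Slc36a2, against 26.8%) and 3 wholly lower (Klhl13, Sp100 and Tmem26, against 28.5%).

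Cited1, a transcriptional co-regulator that binds CBP and p300, was barely detected. It had 1 and 0 reads in the iWAT cultures, 0 and 0 in the BAT cultures, and 1 and 1 in the eWAT cultures. These are at or under the 3 reads that a count of 0 allows, so no fold is given for Cited1. Tnfrsf9 had 1 and 3 reads in the iWAT cultures, 1 and 0 in the BAT cultures, and 0 and 3 in the eWAT cultures. It too was at or under 3 reads in every library, so its ratios are given only to show their intervals. Its CPM ratio of iWAT to BAT was 3.61 with an exact binomial 95% interval of 0.358 to 178, and that of iWAT to eWAT was 1.28 with an interval of 0.217 to 8.74. These intervals cover counting error only, and a difference between depots was not detectable for either gene at this depth.

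**Figure D2:**
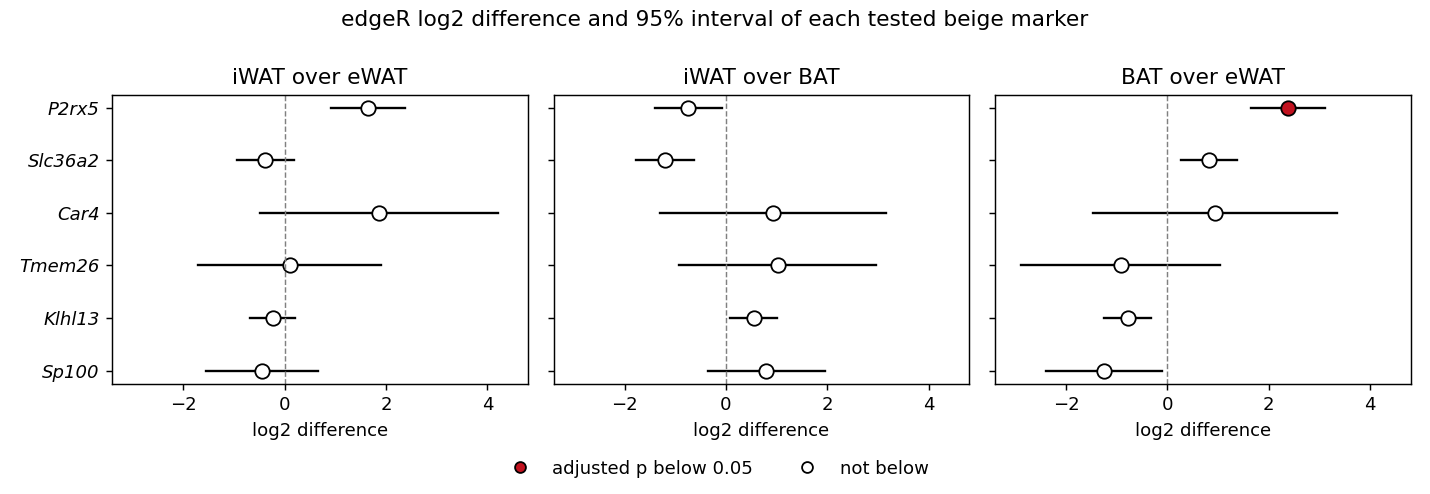
Log2 difference (horizontal axis) of the 6 tested beige markers in each contrast of depots, with lines for the 95% interval from edgeR and a filled point where the adjusted p was below 0.05. P2rx5 between BAT and eWAT, at 2.38, is the filled point, and the intervals of Car4 and Tmem26 span 0 in each contrast.

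The tested markers as a group had no common direction. The median log2 difference of the 6 was -0.07 for iWAT over eWAT, 0.67 for iWAT over BAT and 0.02 for BAT over eWAT, beside medians of 0.01, 0.02 and -0.03 over all tested genes. In the contrast of iWAT with BAT, edgeR called 0 of the 6 higher and 0 lower in iWAT, against 0.895% and 0.145% of all genes, or 1.04% either way. There 3 markers (P2rx5, Slc36a2 and Klhl13) had an unadjusted p below 0.05, as did 16.6% of all genes, and limma voom called 0. DESeq2 called 1 (Slc36a2, lower in iWAT) against 1.53% of all genes, and 0 higher against 2.82%, or 4.35% either way. With BAT set against eWAT, 0 of the 6 were called lower by edgeR, DESeq2 or limma voom, beside 3.75% of all genes by edgeR and 6.57% by DESeq2. The calls in that contrast were P2rx5 by edgeR, where 6.46% of all genes were called either way, and P2rx5 and Slc36a2, both higher, by DESeq2, which called 5.11% higher and 11.7% either way. Limma voom called P2rx5 higher too, as it did 242 of all genes. In it 4 of the 6 had an unadjusted p below 0.05 (P2rx5, Slc36a2, Klhl13 and Sp100), against 25.9% of all genes.

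**Figure D3:**
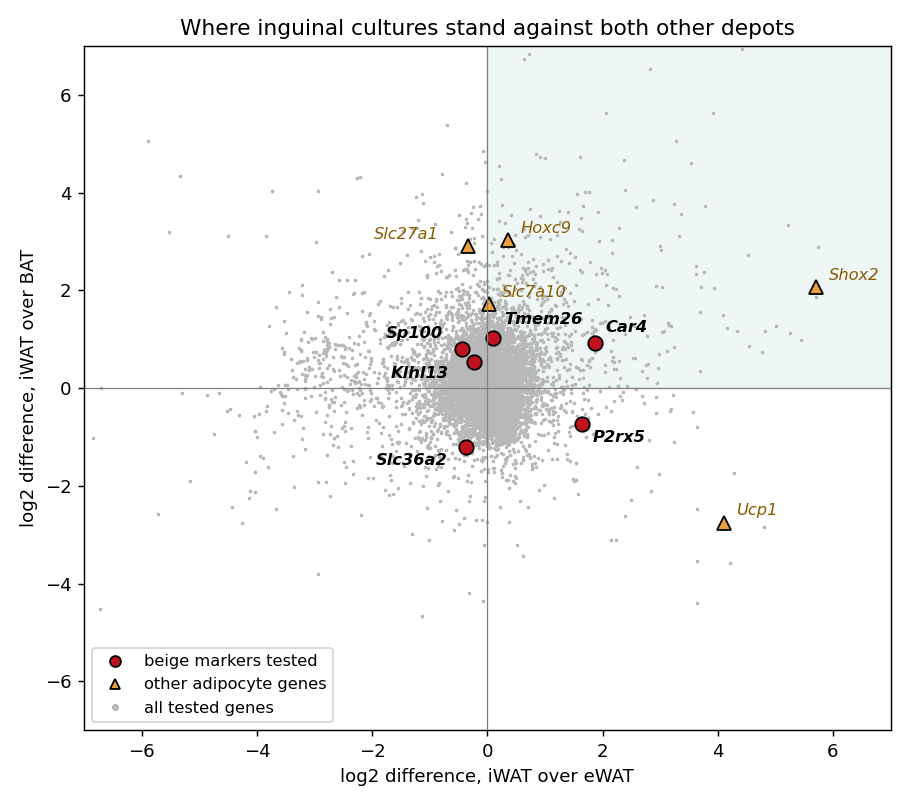
Log2 difference of iWAT over eWAT (horizontal axis) and of iWAT over BAT (vertical axis) for every tested gene (grey), the 6 tested beige markers (red) and 5 other adipocyte genes (orange), with 9 genes outside the axes. Car4 and Tmem26 are the red points in the shaded field where iWAT is above both, P2rx5 lies with Ucp1 in the field below BAT and above eWAT (both contrasts share the iWAT libraries).

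Among other published beige markers, Slc27a1 and Hoxc9 were higher in iWAT than in BAT. Of 6 such genes, Tbx1, Ear2 and Cd40 were not tested. Tbx1, a T-box regulator, had 1 read in all, Ear2, an eosinophil ribonuclease gene, had 0, and Cd40, a surface receptor, had 3 and 4 reads in iWAT, 10 and 3 in BAT and 9 and 9 in eWAT. Slc27a1, a fatty acid transporter, averaged 460.9 ± 38.1 CPM in iWAT, 60.9 ± 20.2 CPM in BAT and 580.0 ± 73.1 CPM in eWAT. It was higher in iWAT than in BAT (log2 difference 2.91 ± 0.28, edgeR adjusted p = 0.0165), and BAT stood below eWAT, at -3.24 ± 0.28 (adjusted p = 0.0103). Hoxc9, a positional homeobox gene, averaged 11.7 ± 0.505 CPM in iWAT, 1.48 ± 0.605 CPM in BAT and 9.07 ± 0.354 CPM in eWAT. It too was higher in iWAT than in BAT (3.03 ± 0.41, adjusted p = 0.0348). Between iWAT and eWAT the libraries did not overlap, with a log2 difference of -0.33 ± 0.26 for Slc27a1 and 0.36 ± 0.33 for Hoxc9. Neither passed (edgeR adjusted p = 0.898 and 0.936). Of all tested genes, 18.8% lay wholly lower and 19.2% wholly higher in iWAT than in eWAT.

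Shox2, a homeobox gene active in limb patterning, had both iWAT libraries above all others, as did Hoxc9 and 6.22% of all tested genes. It had 61 reads in each iWAT library, 23 and 5 reads in the BAT libraries, and 1 read in each eWAT library. The CPM ratio of iWAT to eWAT was 58.6 with an exact binomial 95% interval of 15.9 to 489 for counting error. By edgeR without a block, Shox2 did not pass in iWAT against eWAT (adjusted p = 0.0759) or against BAT (2.06 ± 0.46, adjusted p = 0.12), it was higher in BAT than in eWAT (3.64 ± 0.72, adjusted p = 0.0416), and with the replicate block it was higher in iWAT than in eWAT (5.73, adjusted p = 0.00363) and than in BAT (2.08, adjusted p = 0.0237).

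The thermogenic programme gave a further yardstick for the surface markers. Ucp1 averaged 1055 ± 84.5 CPM in iWAT, 7109 ± 3090 CPM in BAT and 61.3 ± 2.28 CPM in eWAT, so iWAT stood between the other depots, as it did for P2rx5. Ucp1 was lower in iWAT than in BAT (-2.75 ± 0.36, edgeR adjusted p = 0.0314) and differed from eWAT by 4.11 (adjusted p = 0.0759, or 0.00177 with the replicate block). Of 15 thermogenic genes, edgeR called 0 higher and 2 lower in iWAT than in BAT (Ucp1 and Ebf2, a regulator of brown precursors), with a median of -1.06. Of all tested genes, 0.895% were higher and 0.145% lower there. Against eWAT, edgeR called 0 of the 15, with a median of 0.51, and 0% of all genes. At an unadjusted p below 0.05, 6 were higher and 1 lower in iWAT, against 9.34% of all genes either way. DESeq2 called 4 and 1 (0.963% and 1.6% of all genes), and limma voom 1 and 0. EdgeR with the replicate block called 5 and 1 (195 and 368 of all genes). Against BAT the block gave 0 higher and 10 lower in iWAT (691 and 534 of all genes). There DESeq2 called 0 and 7 (2.82% and 1.53% of all genes) and limma voom 0 and 1. An unadjusted p below 0.05 gave 0 and 9, against 16.6% of all genes either way. In BAT against eWAT, edgeR called 9 higher and 1 lower, with a median of 1.82, against 2.71% and 3.75% of all genes. With the replicate block 13 were higher and 1 lower there, beside 1276 and 1504 of all genes. Prdm16, a coregulator of brown and beige fate, averaged 5.05 ± 0.331 CPM in iWAT, 7.32 ± 3.17 CPM in BAT and 0.608 ± 0.458 CPM in eWAT (iWAT over eWAT 2.93, adjusted p = 0.181). Zic1, a marker of classical brown fat, had 2 and 1 reads in iWAT, 32 and 27 in BAT and 0 in both eWAT libraries.

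Slc7a10, a neutral amino acid transporter, is a published surface marker of white adipocytes. It averaged 8.60 ± 0.0794 CPM in iWAT, 2.61 ± 0.0994 CPM in BAT and 8.43 ± 0.263 CPM in eWAT. BAT cultures stood below eWAT cultures, at -1.69 ± 0.34 (edgeR adjusted p = 0.0427), and between iWAT and eWAT the log2 difference was 0.03, with an interval of -0.71 to 0.76 (adjusted p = 0.998). Slc7a10 did not stand for white adipocyte markers at large. Of 6 tested, Slc7a10 was the only 1 with a log2 difference of iWAT over eWAT above 0, and the median was -1.26. By edgeR 0 were called there, while 4 were lower in iWAT at an unadjusted p below 0.05. DESeq2 called 2 lower, limma voom 0, and edgeR with the replicate block 3 (Nnmt, Retn and Tcf21). The iWAT cultures thus had Slc7a10 levels overlapping those of eWAT, P2rx5 levels between the other depots, and the lowest Slc36a2 levels.

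Relatives and partners of the markers showed few differences. By edgeR 0 of the 3 other tested P2X receptors passed in any contrast, and DESeq2 and limma voom called 0 of them too. At an unadjusted p below 0.05, 1 was higher in iWAT than in BAT. Over all contrasts, the smallest edgeR adjusted p of the 3 was 0.217, for P2rx4, and not in that contrast. P2rx4 averaged 31.2 CPM per kilobase in iWAT, 21.7 in BAT and 28.9 in eWAT and was the most abundant of the family on that scale in each depot. Of the SLC36 transporters, Slc36a1 and Slc36a4 were tested and did not pass (smallest adjusted p = 0.498), and Slc36a3, the nearest gene to Slc36a2, had 2 reads, both in BAT. Among 16 carbonic anhydrases, 6 were tested. Car3, the cytosolic muscle and fat isoform, dominated with 1388 CPM per kilobase in iWAT, 586.7 in BAT and 3616 in eWAT, against 10.6, 5.42 and 2.80 for Car4 in the same depots. The Car3 difference of BAT from eWAT was -2.63 (adjusted p = 0.0668), the smallest p of that family. By edgeR 0 of these 6 were called in any contrast, and at an unadjusted p below 0.05 1 was lower in iWAT than in BAT while BAT had 1 higher and 3 lower relative to eWAT. DESeq2 called 1 lower in iWAT than in BAT and 2 lower in BAT relative to eWAT, and limma voom called 0. With the replicate block, Car3 was lower in iWAT than in eWAT (-1.22, adjusted p = 0.0345), higher in iWAT than in BAT (1.37, adjusted p = 0.0184) and lower in BAT than in eWAT (-2.59, adjusted p = 0.00109). In the same block fit, Car2 was lower in iWAT than in BAT (-1.91, adjusted p = 0.00197) and higher in BAT than in eWAT (1.07, adjusted p = 0.00583). Car5b was lower in BAT than in eWAT in that fit (-0.86, adjusted p = 0.00704).

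Cited2 and Cited4 were tested in place of the undetected Cited1 and did not pass (smallest adjusted p = 0.385). Cited2, an inhibitor of hypoxia signalling, had nearly the same mean in each depot, with 37.4 ± 22.0 CPM in iWAT, 36.0 ± 14.2 CPM in BAT and 34.0 ± 13.1 CPM in eWAT. Tnfsf9, the ligand of Tnfrsf9, had 14 reads in each iWAT library, 6 and 0 in BAT, and 4 and 5 in eWAT. Its iWAT libraries thus lay above all others, as in 6.22% of tested genes. Its log2 difference was 1.54 from eWAT (adjusted p = 0.694) and 2.12 from BAT (adjusted p = 0.287). The Klhl13 partners Klhl9, Klhl21, Cul3 and Rbx1 did not pass (smallest adjusted p = 0.163). Klhl9, the near relative that works with Klhl13 in cell division, averaged 92.1 CPM per kilobase in iWAT, 111.6 in BAT and 86.6 in eWAT, against 12.9, 8.86 and 15.2 for Klhl13. Pml, the organiser of the nuclear bodies that hold Sp100, averaged 21.6 ± 4.89 CPM in iWAT, 10.5 ± 0.741 CPM in BAT and 25.7 ± 9.42 CPM in eWAT, the order of the Sp100 means (BAT over eWAT -1.29, adjusted p = 0.0771, or 0.00959 with the replicate block).

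Summed levels of markers of other cell types and of interferon response genes are shown in the plot of summed marker levels. In bulk RNA, fewer cells of a type and less RNA per cell cannot be told apart. The 13 macrophage markers in the table summed to 656 and 194 CPM in the iWAT cultures, 444 and 95.2 CPM in the BAT cultures, and 4820 and 2130 CPM in the eWAT cultures, and 0 of the 13 were at 0 throughout. Of 12 tested, 0 passed by edgeR between iWAT and eWAT, while all 12 were lower in iWAT at an unadjusted p below 0.05 and with the replicate block, 8 by DESeq2 and 0 by limma voom. In BAT against eWAT, 6 of the 12 were lower by edgeR, 11 by DESeq2, 4 by limma voom and 12 with the replicate block. Of all tested genes, 3.75% were lower there by edgeR and 6.57% by DESeq2. The 18 interferon response genes summed to 757 and 681 CPM in iWAT, 832 and 549 CPM in BAT and 930 and 1050 CPM in eWAT. Both lists were lowest in BAT replicate 2, where Sp100 was lowest too, and highest in the eWAT cultures, where Sp100 was highest. From eWAT replicate 1 to replicate 2, Sp100 rose from 18.9 to 23.04 CPM. The interferon sum rose as well, while the macrophage sum fell from 4820 to 2130 CPM. Of 17 tested interferon genes, 2 were lower in BAT than in eWAT (Bst2 at -1.69 and Irf7 at -2.03, edgeR adjusted p = 0.0417 and 0.0477), with a median of -1.02. With the replicate block 4 were lower in that contrast. Their part in the Sp100 levels was not tested.

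**Figure D4:**
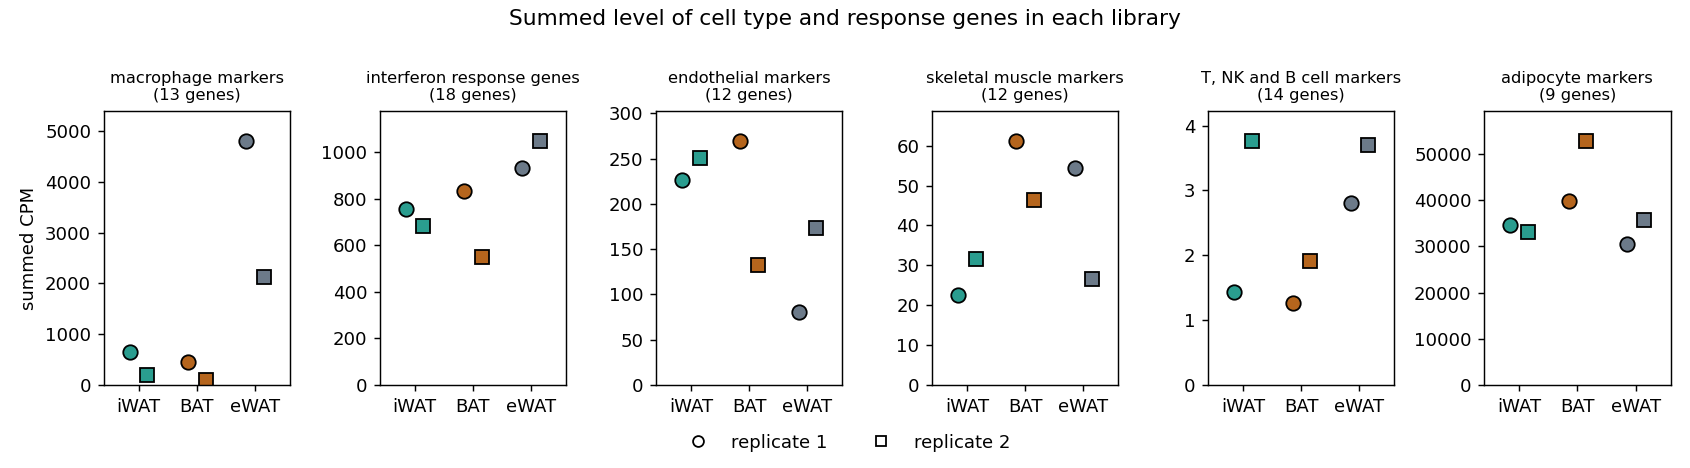
Summed CPM (vertical axis, linear from 0) of marker lists for other cell types, interferon response genes and adipocytes in each library, with circles for replicate 1 and squares for replicate 2. The macrophage sum is 4820 and 2130 CPM in eWAT against at most 656 CPM elsewhere, and the sum for T, NK and B cells stays under 4 CPM.

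Car4 is also known from capillary endothelium. The 12 endothelial markers summed to 226 and 251 CPM in iWAT, 270 and 132 CPM in BAT and 80.4 and 173 CPM in eWAT. Within each depot the endothelial sum and Car4 moved the same way in BAT and opposite ways in iWAT and eWAT. Of 11 tested, edgeR called 0 in any contrast, and the median of iWAT over eWAT was 0.95. At an unadjusted p below 0.05, 2 were higher in iWAT than in eWAT, 1 higher in iWAT than in BAT and 1 higher in BAT than in eWAT, and DESeq2, limma voom and edgeR with the replicate block called 0. The endothelial part in Car4 was not tested.

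P2rx5 is also expressed in skeletal muscle. The 12 muscle markers summed to 22.6 and 31.7 CPM in iWAT, 61.3 and 46.3 CPM in BAT and 54.5 and 26.5 CPM in eWAT. Myod1, which defines the muscle lineage, had 1 read in all 6 libraries, and Myog, the gene of muscle differentiation, had 0 and 2 reads in iWAT, 13 and 0 in BAT and 0 in both eWAT libraries. Of 6 tested muscle markers, edgeR called 0 higher and 1 lower (Actn3) in BAT relative to eWAT, with a median of 0.90. DESeq2, an unadjusted p below 0.05 and edgeR with a replicate block each gave 3 higher and 1 lower in that contrast, the block calling Mb, Myh1 and Ttn. Mb, the muscle oxygen carrier, had 0 and 7 reads in iWAT, 25 and 20 in BAT and 0 in both eWAT libraries. P2rx5 was, like Mb, highest in BAT and lowest in eWAT (3.49 and 3.41 CPM). The muscle sum had another order, with eWAT replicate 1 above BAT replicate 2 and iWAT replicate 1 lowest. The muscle part in the P2rx5 level was not tested. T, NK and B cells, which can carry Tnfrsf9, were represented by 14 markers that summed to 1.44 and 3.77 CPM in iWAT, 1.27 and 1.91 CPM in BAT and 2.8 and 3.7 CPM in eWAT. None of the 14 passed the filter on low counts, and Cd3e was at 0 in every library.

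Preadipocyte and fibroblast markers followed the depots as well. Their 9 genes summed to 15700 and 18400 CPM in iWAT, 3500 and 2590 CPM in BAT and 13600 and 15900 CPM in eWAT, most of it from the collagen gene Col3a1. Of 8 tested, 4 were higher in iWAT than in BAT, among them Pdgfra, a receptor of adipocyte precursors (2.47, edgeR adjusted p = 0.0162), and BAT had 1 higher and 4 lower when set against eWAT. With the replicate block, 6 were higher in iWAT than in BAT and 1 (Thy1) higher in iWAT than in eWAT, while BAT had 1 higher and 6 lower relative to eWAT. Klhl13, Sp100, Slc27a1 and Hoxc9 were also lowest in BAT, and the part of the precursor cells in their levels was not tested.

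The markers also differed in which genes they resembled. Over the 6 libraries, and among genes averaging at least 5 CPM, Snx25 (Pearson r = 0.993), Tiam2 (0.992) and Popdc3 (0.988) were most like P2rx5 in log2 CPM. Popdc3, a membrane protein gene, had 5.53 and 7.29 CPM in iWAT, 13.1 and 13.8 CPM in BAT and 1.16 and 0.569 CPM in eWAT. Nemf (0.994), Chuk (0.989) and Cisd2 (0.989) were most like Slc36a2. Sp100 was closest to Kcnj2 (0.999), Gbp2 (0.994) and Irgm2 (0.993), and the last 2 of these are interferon-inducible GTPase genes. Gbp2 had 95.7 and 82 CPM in iWAT, 87.5 and 32.5 CPM in BAT and 109 and 138 CPM in eWAT. Klhl13 was closest to Pag1 (0.991), Mtmr4 (0.989) and Tap2 (0.988), the last a peptide transporter of antigen presentation. Car4 was closest to Eid1 (0.986), D15Ertd621e (0.984) and Acbd3 (0.975), and Tmem26 to Kctd20 (0.999), Rps24 (0.997) and Spcs2 (0.985). The points share 6 libraries and their depths, and from 16 to 116 genes per marker exceeded r = 0.95, so these values only describe likeness.

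Among the markers themselves, r over the 6 libraries ran from -0.87 for P2rx5 with Klhl13 to 0.83 for Sp100 with Tmem26. P2rx5 and Slc36a2 had r = 0.45, and Klhl13 and Sp100 had r = 0.63. As a description over 6 shared libraries, these values fall into no single block of markers that vary together.

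By position, 3 of the 8 markers lie on chromosome 11, which holds 7.7% of the table's genes, and 2 lie on the X chromosome, which holds 4.07%. In mm9, the chromosome 11 genes are Slc36a2 (NM_153170, 54971970 to 54998579), P2rx5 (NM_033321, 72974032 to 72986189) and Car4 (NM_007607, 84771256 to 84779556). Klhl13 (NM_026167, 22796397 to 22942208) and Cited1 (NM_001276466, 99442717 to 99447520) are on X, Sp100 (NM_013673, 87546625 to 87606023) on chromosome 1, Tmem26 (NM_177794, 68186494 to 68245402) on chromosome 10 and Tnfrsf9 (NM_011612, 150294264 to 150320211) on chromosome 4. No other gene of the table overlapped any of the 8. Sp140, the nearest neighbour and a relative of Sp100, lies 5013 bases away and averaged 5.14 ± 1.58 CPM in iWAT, 2.54 ± 0.890 CPM in BAT and 6.13 ± 0.224 CPM in eWAT, again the order of the Sp100 means.

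The authors' deposited table gave the same direction as edgeR for each of the 6 tested markers in each contrast. Besides Car4, the authors' deposited table called P2rx5 higher in iWAT than in eWAT (1.62, adjusted p = 3.49e-05), so that 2 of 8 were higher and 0 lower there, against 3.25% and 5.27% of its genes. It also called Slc36a2 lower in iWAT than in BAT (-1.15, adjusted p = 8.1e-05) in the authors' deposited table, which called 5.33% of genes higher and 2.91% lower between iWAT and BAT. For BAT over eWAT, the authors' deposited table called P2rx5 (2.39, adjusted p = 1.27e-09) and Slc36a2 (0.82, adjusted p = 0.00108) higher, and Klhl13 (-0.78, adjusted p = 0.0177) and Sp100 (-1.35, adjusted p = 0.0133) lower. These 4 compare with 6.58% of its genes called higher and 9.05% called lower in that contrast.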

How the data were processed

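Reads were aligned by the authors with STAR to mm9, per the submitters' processing notes. Program versions, strand and read counting: not given in the sources used here. Per gene, the deposited count table holds whole-number read counts, with no normalization per the file headers. A second deposited table by the authors holds log2 fold changes and p-values per pair of depots; its sign for iWAT and BAT was turned here to iWAT over BAT. Its deposited log2 expression values were not used. Genes kept by filterByExpr (11732 of 20295, from 99.73% to 99.81% of each library's counts) were tested with edgeR 4.0.16 quasi-likelihood F tests in R 4.3.3, on 1 fit of all 6 libraries with depot as the only term, trimmed-mean scaling, and adjusted p below 0.05 as the call. Standard errors are the log2 difference divided by the square root of F. The edgeR test without a block was checked on simulated independent libraries, with no deviation shared by same-numbered libraries. Of 200 genes set higher in iWAT there, 37 were called against eWAT at 2-fold, 184 at 4-fold and 197 at 8-fold. A 2-fold difference could thus often be missed. DESeq2 1.42.0, limma 3.58.1 voom, other scaling, no filter, pair fits, a replicate term and each library left out were alternatives. Same-numbered libraries deviated together from their depot means in each pair of depots (r = 0.448 for iWAT with BAT, 0.556 for iWAT with eWAT and 0.412 for BAT with eWAT). The labels do not say what a number marks, so the main fit has no replicate term and its p-values ignore any such pairing. A fit with the replicate number as a block was run beside it. Values with the block are given for many, though not all, results whose call it changes. Replicates differed by far more than counting noise (chi-square per degree of freedom from 16 to 19.8). Named genes were all 8 markers, up to 4 called genes per list and contrast, tested relatives, 4 anchors (Ucp1, Prdm16, Slc7a10 and Zic1) and the 3 most alike genes per marker, and other genes were named after their values were seen. Markers, lists and rules were chosen with earlier results of these data known. Figures used matplotlib 3.10.9.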

Additional observations from a re-analysis of the deposited data

How the results depend on the processing

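No beige marker was called higher in iWAT than in both other depots under any alternative run, and no marker's called difference changed direction. The main fit, other scaling, limma voom and the pair fits called 0 of all genes higher in both. For those runs the lack of a called marker is therefore not particular to the markers. With no filter on low counts, 1 marker was higher in iWAT than in eWAT, 1 lower in iWAT than in BAT, and BAT had 2 higher and 2 lower relative to eWAT. DESeq2 called 1 lower in iWAT than in BAT and 2 higher in BAT than in eWAT, and fits of only the depots compared called 0 higher in BAT than in eWAT. Over all genes the counts moved more. For iWAT over eWAT (0 higher, 0 lower), there were 204 higher and 353 lower with no filter, 113 and 188 by DESeq2, 1 higher by limma voom and 2 higher in the fit of those depots alone. For iWAT over BAT (105 and 17), there were 531 and 249 with no filter, 331 and 179 by DESeq2, 62 and 7 by limma voom, and 85 and 7 in the fit of those depots alone. For BAT over eWAT (318 and 440), there were 769 and 1168 with no filter, 599 and 771 by DESeq2, and 40 and 116 in the fit of those depots alone. Genes higher in iWAT than in both numbered 79 with no filter and 42 by DESeq2. The cause of these shifts was not tested.

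With 1 library left out in turn, all genes called ranged from 0 to 2 higher and 0 to 2 lower for iWAT over eWAT, 0 to 87 and 0 to 7 for iWAT over BAT, 4 to 415 and 13 to 414 for BAT over eWAT, and 0 to 1 for iWAT over both. The markers called ranged from 0 to 1 higher and 0 to 1 lower for BAT over eWAT. A lone remaining library is assumed to vary like the other depots.

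With a replicate block, 1 marker was higher in iWAT than in eWAT (P2rx5 at 1.64, adjusted p = 0.0301), 1 lower in iWAT than in BAT, and BAT had 2 higher and 1 lower relative to eWAT. With the block, all genes called were 195 higher and 368 lower, 691 and 534, and 1276 and 1504 in the contrasts iWAT over eWAT, iWAT over BAT and BAT over eWAT, and 81 were higher in iWAT than in both. The block changed no other call of the 6 tested markers. Cited1 and Tnfrsf9 had at most 3 reads in any library.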
